A study of Mus musculus with 3 samples.

Results

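The transforming growth factor beta (TGF-beta) system of the mouse cornea was described through 9 genes: the ligands Tgfb1, Tgfb2 and Tgfb3, the receptors Tgfbr1 and Tgfbr2, and the fibrosis-linked genes Tgfbi, Acta2, Fn1 and Postn. They were taken by name, with no measured value in the rule, from the 30406 genes that all 3 deposited gene lists hold, and were matched by Ensembl ID. These genes, and the lists used below, were chosen with earlier results of these data known. Each of the 9 genes was counted in every library, with 1124 to 256842 unique molecular identifiers (UMIs, which count captured RNA molecules), and all 9 passed the minimum of 50 UMIs in every comparison of whole libraries.

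TGF-beta ligands are secreted in a latent form, are released by integrins and proteases, and bind the type II receptor Tgfbr2, which activates the type I receptor Tgfbr1. Tgfbr1 then phosphorylates Smad2 and Smad3, which enter the nucleus with Smad4 and switch on genes of the extracellular matrix and of contraction. In the cornea the system is best known from wound scars, in which keratocytes, the quiescent cells of the stroma, turn into contractile myofibroblasts that contain the actin encoded by Acta2 and deposit fibronectin.

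Nuclei of whole corneas were profiled by 10x Genomics 3' sequencing in 3 libraries, 1 per group, each from 5 pooled mice of 7 weeks. The groups were wild-type mice (WT), untreated mice lacking Aire (KO), and mice lacking Aire that received phosphate-buffered saline for 14 days (KO_PBS). Aire drives the display of self-antigens in the thymus, and its loss gives an autoimmune dry eye disease. The KO and KO_PBS groups share the loss of Aire and differ, per the labels, in the saline treatment. The deposited gene list of KO_PBS also differed, with 31053 genes against 32285 in those of WT and KO. In comparisons of KO_PBS, a difference in annotation or processing cannot be told apart from the treatment. The strain, the sex and the Aire allele are not given in the labels, and the series title speaks of topical lubrication. The series text states an earlier age and treatment day, and a further arm named there was not analysed here. There is a single library in each group, so nothing below has a replicate check, no test was run and no p-value is given. Levels are UMIs per 1000000 UMIs of the library (CPM), with exact 95% Poisson intervals that cover counting error only. A gene was counted as differing between 2 libraries when the 2 libraries held 50 or more of its UMIs, with a fold of at least 2 and intervals that did not overlap, which is a rule of size. Pooled mice and counting intervals leave the spread between mice unmeasured.

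The libraries held 96587 to 114357 barcodes and 178988562 to 352627863 UMIs each, and every pair of libraries had between 2833 and 3379 barcode sequences in common. Aire itself had 15 UMIs (0.0586 CPM) in WT, 27 (0.0768 CPM) in KO and 68 (0.382 CPM) in KO_PBS. It was no lower in the libraries labelled as lacking Aire, and since the deleted part is not given, a 3' count cannot check the genotype, so the groups rest on the labels alone. Krt12, the keratin of corneal epithelium, was abundant in each library, at 26121 CPM (WT), 13793 (KO) and 6205 (KO_PBS). The KO_PBS library stood apart by genes of other eye tissues. Its 7 lens markers summed to 6216 CPM, against 434 in WT and 167 in KO, its melanocyte markers to 4562 CPM, against 522 and 154, and its photoreceptor markers to 1923 CPM, against 120 and 44.7. The 25% of barcodes with the fewest UMIs held these genes too: in KO_PBS melanocyte markers stood there at 4436 CPM and lens markers at 7451 CPM. The median gene with enough UMIs was higher by 0.24 on the log2 scale in KO than in WT, by 0.63 in KO_PBS than in KO and by 1.27 in KO_PBS than in WT. A ratio relative to the median gene has that shift taken off.

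Sequences before the RefSeq start sites are shown for Acta2 and Tgfb2, which had the largest ratios in KO_PBS, and for Tgfb1, the ligand with the smallest ratio between KO_PBS and KO. The set of RefSeq windows used here (GRCm38.p6, the build the labels name as mm10) covered 7 of the 9 genes, and held none for Tgfb3 and Fn1. Tgfb2 lies on the minus strand, and its window at chr1:186705990-186706239 is printed 5′ to 3′ on that strand. Capitals mark the Smad-binding core CAGAC and the TATA box TATAAA.
Tgfb2: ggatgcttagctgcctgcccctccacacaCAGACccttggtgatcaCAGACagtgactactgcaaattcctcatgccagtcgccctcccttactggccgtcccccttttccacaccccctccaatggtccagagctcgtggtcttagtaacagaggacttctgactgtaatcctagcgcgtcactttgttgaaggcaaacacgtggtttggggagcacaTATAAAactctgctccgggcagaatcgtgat
Tgfb1 lies on the plus strand, and its window is chr7:25686752-25687001. Capitals mark GGGCGG and its complement CCGCCC, the letters of the GC box that Sp1-type factors bind.
Tgfb1: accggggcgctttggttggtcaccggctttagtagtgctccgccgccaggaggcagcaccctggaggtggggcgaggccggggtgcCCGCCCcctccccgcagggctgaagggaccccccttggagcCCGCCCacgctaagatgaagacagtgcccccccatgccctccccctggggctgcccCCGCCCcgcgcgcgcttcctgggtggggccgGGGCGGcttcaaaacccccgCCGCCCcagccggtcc
For Acta2, on the minus strand, only the surroundings of its CArG boxes are printed, because GENCODE M21 places exon 1 over most of the RefSeq window. The CArG box is the site of serum response factor, and its 10 bases are in capitals with 10 bases on either side. The first stretch is chr19:34255438-34255467 and the other is chr19:34255388-34255417.
Acta2 box from -84 to -75: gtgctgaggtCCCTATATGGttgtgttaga
Acta2 box from -34 to -25: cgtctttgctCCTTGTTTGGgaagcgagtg

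The promoters of these ligands differed in make-up. The 250-base window of Tgfb1 was 75.2% G or C and held 5 GC boxes, while that of Tgfb2 was 53.6% G or C, held a TATA box from -31 to -26 and had CAGAC at -221 and -204. Across 32851 RefSeq windows of this length, which leave out those of a whole chromosome, the median was 52.4% G or C. Of these windows 32.7% held GGGCGG on either strand, 12.4% held TATAAA and 42.2% held CAGAC. CArG boxes with at most 1 inner G or C were held by 8.59% of windows. The Acta2 window held a pair of them, and Tgfbr2 also had one, from -73 to -64. Motifs were searched on both strands, and a match describes letters in a window, with no measurement of binding.

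In GRCm38, by GENCODE M21, Tgfb1 (ENSMUSG00000002603) spans chr7:25687002-25705077, Tgfb2 (ENSMUSG00000039239) chr1:186622792-186705989 and Tgfb3 (ENSMUSG00000021253) chr12:86056745-86079041. The receptor genes Tgfbr1 (ENSMUSG00000007613) and Tgfbr2 (ENSMUSG00000032440) span chr4:47353222-47414931 and chr9:116084293-116175360. Among the other genes, Tgfbi (ENSMUSG00000035493) spans chr13:56609523-56639562, Acta2 (ENSMUSG00000035783) chr19:34241090-34255590, Fn1 (ENSMUSG00000026193) chr1:71585520-71653200 and Postn (ENSMUSG00000027750) chr3:54361109-54391037. Exons on the opposite strand overlap Tgfb2 (Gm29491), Tgfb3 (Gm48008, which the KO_PBS gene list lacks) and Fn1 (Apol7d). Whether counting used strand is not given in the sources used here, so a part of these 3 genes' UMIs could belong to their partners.

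**Figure D1:**
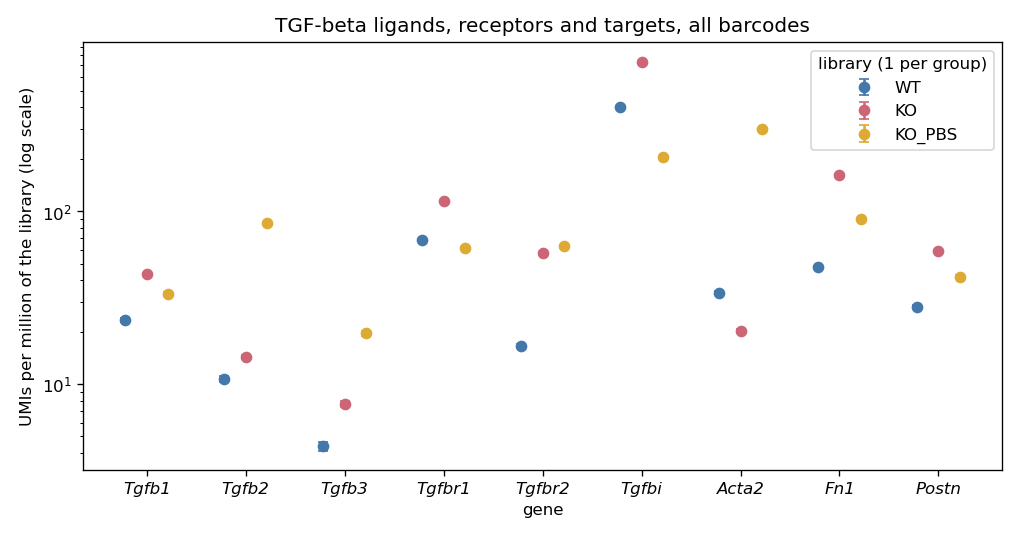
CPM (log scale) of the 9 genes in the 3 libraries over all barcodes, with 95% Poisson intervals, most of them smaller than the points. Acta2 and Tgfb2 are highest in KO_PBS (300.04 and 85.5), while Fn1 and Tgfbi are highest in KO (162 and 731).

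The 3 ligands did not move together. Tgfb2, the isoform abundant in the eye and in aqueous humor, and Tgfb3 were highest in KO_PBS, whereas Tgfb1, the isoform of immune cells and platelets, was highest in KO. The level of Tgfb2 was 10.7 CPM (95% interval 10.3 to 11.1) in WT, 14.5 CPM (14.1 to 14.9) in KO and 85.5 CPM (84.1 to 86.9) in KO_PBS. No intervals overlapped, and the step from KO to KO_PBS, 5.91-fold or 2.56 on the log2 scale, was larger than the 1.35-fold step from WT to KO. The difference from KO remained above 2-fold at 1.93 relative to the median gene, and KO_PBS exceeded WT 7.98-fold (log2 3.00, or 1.73 relative to the median gene). Tgfb3 stood at 4.39 CPM (4.14 to 4.66) in WT, 7.71 CPM (7.42 to 8.01) in KO and 19.7 CPM (19.1 to 20.4) in KO_PBS. It was counted as higher in KO_PBS than in KO (log2 1.35), but relative to the median gene this was 0.72 and no longer counted, as was its ratio to WT (2.17, then 0.90). Tgfb1 stood at 23.6 CPM (23.0 to 24.2) in WT, 43.3 CPM (42.7 to 44.0) in KO and 33.5 CPM (32.7 to 34.4) in KO_PBS. Its intervals were apart in every pair, yet no ratio of library totals reached 2-fold, and KO exceeded WT 1.83-fold. Relative to the median gene, Tgfb1 was counted as lower in KO_PBS than in KO, and its ratio to WT turned from 0.50 to -0.77.

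The receptors also parted. Tgfbr2, which binds the ligand, was higher in both Aire-deficient libraries, whereas Tgfbr1, which carries the signal to the Smads, was highest in KO. Tgfbr2 stood at 16.7 CPM (16.2 to 17.2) in WT, 57.7 CPM (57.0 to 58.5) in KO and 62.9 CPM (61.7 to 64.0) in KO_PBS. KO exceeded WT 3.45-fold, log2 1.79, or 1.54 relative to the median gene, and its intervals did not overlap. The ratio of KO_PBS to KO was 0.12, which turned to -0.08 without the 100 most abundant genes and to -0.51 relative to the median gene. KO_PBS exceeded WT by 1.91 on the log2 scale, but by 0.64 relative to the median gene, which is no longer counted. Tgfbr1 stood at 68.3 CPM (67.3 to 69.3) in WT, 115 CPM (113 to 116) in KO and 61.5 CPM (60.3 to 62.6) in KO_PBS. The KO level was 1.68-fold that of WT and 1.86-fold that of KO_PBS, both under the size rule. With the scale set by the median gene, Tgfbr1 was counted as lower in KO_PBS than in KO (-1.53) and than in WT (-1.42).

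Among the fibrosis-linked genes, Acta2 and Tgfbi had the largest ratios between KO_PBS and KO, in opposite directions. Acta2 stood at 33.8 CPM (33.1 to 34.5) in WT, 20.4 CPM (19.9 to 20.9) in KO and 300.04 CPM (298 to 303) in KO_PBS. Its level was thus 1.66-fold lower in KO than in WT, under the size rule. In KO_PBS it was 14.7-fold higher than in KO and 8.87-fold higher than in WT. On the log2 scale these were 3.88 and 3.15, or 3.25 and 1.88 relative to the median gene, so both stayed counted. Tgfbi, a secreted matrix protein of the cornea whose human mutations cause corneal dystrophies, stood at 403 CPM (400.5 to 405) in WT, 731 CPM (728 to 734) in KO and 207 CPM (205 to 209) in KO_PBS. KO_PBS was 3.54-fold lower than KO (log2 -1.82) and 1.95-fold lower than WT (log2 -0.96). Relative to the median gene the former was -2.45 and stayed counted, and the latter was -2.23 and was then counted.

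Fn1, which encodes fibronectin, and Postn, which encodes the matricellular protein periostin, were highest in KO. Fn1 stood at 47.7 CPM (46.9 to 48.6) in WT, 162 CPM (161 to 164) in KO and 90.9 CPM (89.5 to 92.3) in KO_PBS. KO exceeded WT 3.40-fold, log2 1.77, or 1.52 relative to the median gene. KO_PBS lay between them, 1.79-fold below KO and 1.90-fold above WT, and its sign against WT turned to -0.34 relative to the median gene. Postn stood at 28.2 CPM (27.6 to 28.9) in WT, 59.1 CPM (58.3 to 59.9) in KO and 41.9 CPM (41.0 to 42.9) in KO_PBS. KO exceeded WT 2.09-fold, which is log2 1.07 and counted, but 0.82 relative to the median gene and then not counted. Postn in KO_PBS exceeded WT 1.49-fold, and this too turned sign, to -0.70. Fn1 (-1.47) and Postn (-1.12) were counted as lower in KO_PBS than in KO relative to the median gene, but not on library totals.

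**Figure D2:**
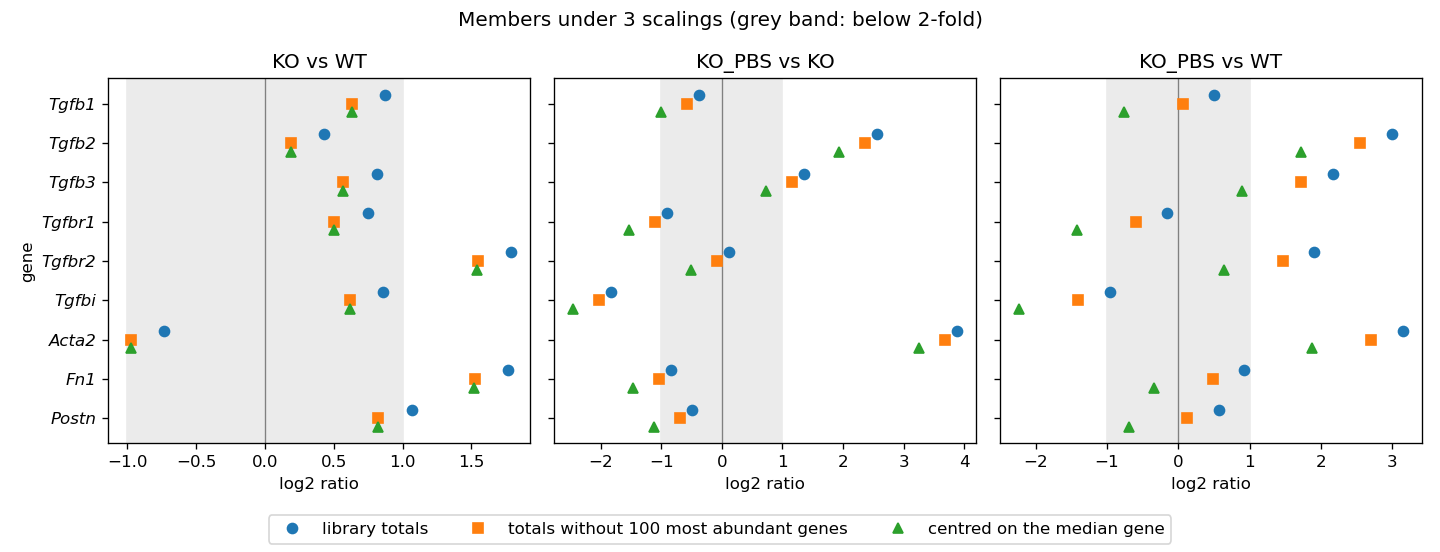
Log2 ratios of the 9 genes in the 3 comparisons under 3 scalings: library totals, totals without the 100 most abundant genes, and centring on the median gene. The grey band spans ratios under 2-fold. Tgfb2 and Acta2 in KO_PBS, Tgfbi in KO_PBS against KO, and Tgfbr2 and Fn1 in KO against WT stay outside it under each scaling.

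In KO against WT, 3 of the 9 genes were counted as higher (Tgfbr2, Fn1 and Postn) and 0 as lower. Over all 20252 genes with enough UMIs, 20.6% were counted as higher and 8.63% as lower. The median log2 ratio of the 9 genes was 0.86, beside 0.24 for all genes, and 8 of the 9 ratios were above 1, with Acta2 as the exception. Relative to the median gene 2 were counted as higher (Tgfbr2 and Fn1) and 0 as lower, beside 14.8% and 12.9% of all genes. In KO_PBS against KO, 3 genes were counted as higher (Tgfb2, Tgfb3 and Acta2) and 1 as lower (Tgfbi), beside 39.9% and 4.70% of 22416 genes. The median ratio of the 9 genes was -0.37, below the median of all genes, 0.63. Relative to that median 2 genes were higher and 5 lower, the latter being Tgfb1, Tgfbr1, Tgfbi, Fn1 and Postn, beside 29.9% and 12.9% of all genes. In KO_PBS against WT, 4 genes were counted as higher (Tgfb2, Tgfb3, Tgfbr2 and Acta2) and 0 as lower, beside 57.0% and 4.06% of 22138 genes. The median ratio was 0.93, beside 1.27 for all genes. Relative to that median 2 were higher (Tgfb2 and Acta2) and 2 lower (Tgfbr1 and Tgfbi), beside 29.6% and 23.1% of all genes. The 4 genes of 9 counted as higher are a smaller share than that of all genes in the same comparison. The 3 comparisons share libraries, so their results are not independent of each other. In sums over whole corneas, fewer cells of a type and less RNA per cell cannot be told apart.

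Genes of other cell types moved with these results. The 10 mural and smooth muscle markers, all with UMIs in every library, summed to 95.6 CPM in WT, 119 in KO and 283 in KO_PBS. Most of the excess was in Myh11, the smooth muscle myosin, at 10.1 CPM in WT, 4.85 in KO and 141 in KO_PBS. Myh11 thus had the same order over the libraries as Acta2, while Notch3, also in the list, was lowest in KO_PBS at 40.6 CPM. From WT to KO, where Acta2 fell, 8 of the 10 mural markers had a higher level. The exceptions were Myh11 and Lmod1. Corneal endothelial markers (8 of 8 with UMIs) summed to 476, 389 and 1682 CPM across WT, KO and KO_PBS. From WT to KO 5 of these 8 had a higher level and 3 a lower one, among the latter Car3 (205 and 73.8 CPM). The 12 keratocyte markers, all with UMIs, summed to 1454 CPM (WT), 4531 (KO) and 2820 (KO_PBS), the same order as Fn1 and Postn. Macrophage markers (10 of 10) summed to 109, 939 and 878 CPM, and so were higher in both Aire-deficient libraries, as was Tgfbr2. The same held for the T cell markers (11 of 11), at 14.2, 181 and 184 CPM, and the B cell markers (8 of 8), at 16.9, 123 and 127 CPM. Plasma cell markers (8 of 8) summed to 46.3, 1332 and 182 CPM, the same order over the libraries as Tgfb1. The sums of the macrophage and keratocyte markers had this order too, but not every marker did. From KO to KO_PBS 5 of the 10 macrophage markers had a higher level and 5 a lower one. Of the 12 keratocyte markers 2 had a higher level and 10 a lower one. The part of these cell types, and of the lens, melanocyte and photoreceptor genes, in the results for the 9 genes was not tested.

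The 9 genes varied little with the depth of the barcodes in WT and KO. Barcodes of each library were ordered by UMIs and divided into 4 equal groups. In WT and KO the deepest group had 0.84 to 1.12 times the CPM of the shallowest for each of the 9 genes. In KO_PBS the ratio was 0.71 for Acta2, 1.69 for Tgfb2, 1.66 for Tgfbr1 and 1.46 for Tgfbr2, and between 0.92 and 1.20 for the others. Acta2 in KO_PBS was therefore highest in the barcodes with the fewest UMIs, at 364 CPM, against 257 CPM in the deepest group. These 25% of barcodes serve below as the low-UMI reference. They were 24159 barcodes with 36878520 UMIs in WT, 26789 with 51810974 in KO and 28665 with 26690503 in KO_PBS. They are thus not empty barcodes, and subtracting their profile can also remove RNA of nuclei.

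The rest of the pathway was read from a list of 69 further genes in 6 groups, also chosen with earlier results of these data known. In KO against WT, 37 of the 69 were counted as higher and 0 as lower, beside 20.6% and 8.63% of all genes, and their median log2 ratio was 1.08 beside 0.24. The counts became 29 and 2 relative to the median gene, beside 14.8% and 12.9% of all genes. Fibrotic and contractile targets had 16 of 25 higher (15 relative to the median gene), and latency and activation genes 9 of 12 (then 8). The largest ratio was that of Timp1, an inhibitor of matrix metalloproteinases, at 2.01 CPM in WT, 66.0 in KO and 17.6 in KO_PBS. Lox, which crosslinks collagen, stood at 3.50, 43.1 and 15.8 CPM in the same order. Nrros, which holds latent TGF-beta on macrophages and microglia, stood at 0.817, 10.4 and 9.86 CPM. Tnc (log2 3.26), Thbs2 (2.57) and Col1a2 (2.25), which encode matrix proteins, completed the 6 largest ratios. The contractile genes Tagln (-0.70), Cnn1 (-0.79), Myl9 (-0.79) and Tpm2 (-0.17) were not counted, and their ratios lay below 1 like that of Acta2, with Cnn1 (-1.04) and Myl9 (-1.03) counted as lower relative to the median gene. Col1a1, Col1a2 and Dcn are also among the keratocyte markers given above. From WT to KO all 12 keratocyte markers had a higher level, and the part of keratocytes in these counts was not tested.

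In KO against WT, where 20.6% of all genes were higher, 4 of 9 co-receptors and other receptors were counted as higher (3 relative to the median gene), among them Eng, the endoglin of endothelium, at 5.39 (WT), 22.3 (KO) and 39.4 CPM (KO_PBS). The 12 markers of vascular and lymphatic endothelium, all with UMIs, summed to 46.2 (WT), 112 (KO) and 233 CPM (KO_PBS), and their part in this was not tested. None of the 3 Smad transducers was counted in any comparison of library totals, with Smad3 at 21.6, 40.0 and 36.9 CPM, though 2 of them were counted as lower in KO_PBS than in WT relative to the median gene, beside 23.1% of all genes. Of 12 inhibitors 5 were counted as higher in KO than in WT, but only 2 relative to the median gene, beside 20.6% and 14.8% of all genes. One counted on either scale was Skil, a repressor of Smads that TGF-beta itself induces, at 12.6, 45.4 and 51.7 CPM. Smad7, the inhibitory Smad, stood at 8.49, 16.3 and 19.9 CPM, just under 2-fold in KO against WT. Of 8 other ligands of the superfamily 3 were counted as higher in KO than in WT, and 1 relative to the median gene, beside the same shares.

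In KO_PBS against KO, 21 of the 69 were counted as higher and 7 as lower, beside 39.9% and 4.70% of all genes, with a median of 0.33 beside 0.63. They turned to 10 higher and 12 lower relative to the median gene, beside 29.9% and 12.9% of all genes. Of the 25 targets 9 were counted as higher and 7 as lower, or 6 and 9 relative to the median gene. Tagln, at 17.2 CPM in WT, 10.6 in KO and 130 in KO_PBS, Cnn1 (log2 3.61) and Myl9 (3.23), which belong to the contractile apparatus of smooth muscle, were higher in KO_PBS than in KO, as Acta2 was. The other targets counted as higher were Cdh2 (2.60), Adam12 (2.21), Ccn2 (2.11) and the matrix genes Loxl2 (1.54), Cthrc1 (1.30) and Vcan (1.09), of which the 3 matrix genes were not counted relative to the median gene. Timp1 (-1.91), Tnc (-1.76), Thbs2 (-1.67), Lox (-1.45), Col5a1 (-1.22), Col1a1 (-1.11) and Col3a1 (-1.06) were lower. From KO to KO_PBS 9 of the 10 mural and smooth muscle markers had a higher level, with Notch3 as the exception, and 10 of the 12 keratocyte markers a lower one, with Ogn and Abi3bp as the exceptions. The part of these cell types in the values of the targets was not tested. Bmp4, a ligand of the sister bone morphogenetic protein branch, stood at 2.45 CPM in WT, 1.71 in KO and 49.8 in KO_PBS, and Bmp2 at 0.778, 1.88 and 17.7 CPM. Fst, whose product follistatin binds activins, was higher by 2.77.

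In KO_PBS against WT, 51 of the 69 were counted as higher and 0 as lower, beside 57.0% and 4.06% of all genes, with a median of 1.63 beside 1.27. Relative to the median gene the counts were 22 and 4, beside 29.6% and 23.1% of all genes, so the share higher was then close to that of all genes. The 6 largest ratios were those of Bmp2 (4.51), Bmp4 (4.34), Nrros (3.59), the proteoglycan gene Vcan (3.20), Itgb8, whose integrin releases active TGF-beta (3.15), and Timp1 (3.13). Ccn2, a target gene much used as a readout of the pathway, stood at 35.2 CPM in WT, 54.6 in KO and 236 in KO_PBS. Ltbp1, which ties latent TGF-beta to the matrix, stood at 10.9, 45.2 and 75.4 CPM.

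**Figure D3:**
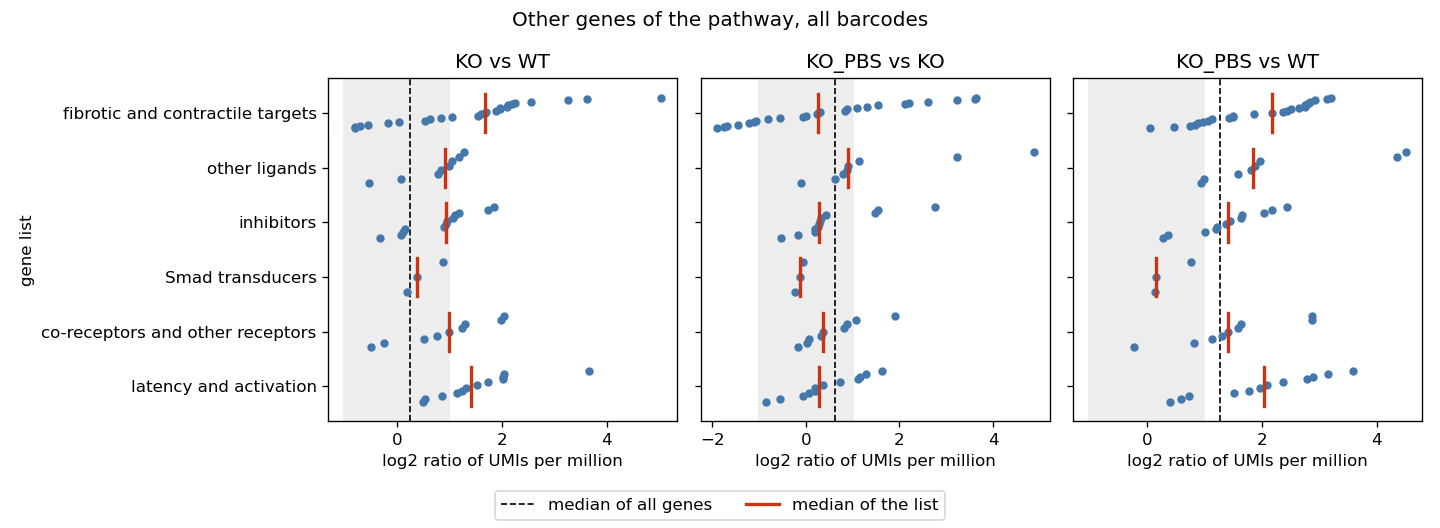
Log2 ratios of the 69 further pathway genes by group in the 3 comparisons, with the median of each group (red bar), the median of all genes (dashed line) and ratios under 2-fold (grey band). In KO against WT the medians of the targets (1.68) and of latency and activation (1.42) lie beyond the band, and in KO_PBS against KO the targets spread to both sides of it.

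To see which barcodes carried the genes, barcodes were called rich in a cell type when its markers, none of which is among the 9 genes, exceeded their library-wide share. Of 48 possible sets 40 had at least 10 barcodes and 50000 UMIs. These are sets of barcodes, not clusters or purified cells: Krt12 in the keratocyte-marker-rich sets was still 93.5% (WT), 88.1% (KO) and 61.3% (KO_PBS) of its low-UMI level. The keratocyte sets numbered 2129 barcodes in the WT library, 1907 in KO and 34 in KO_PBS. The last was led by Itgbl1, Sfrp2 and Nox4, with 1 keratocyte marker among its 10 leading genes. The mural sets were small, with 14, 12 and 16 barcodes, and the one in WT was led by Fabp4 and Rgs5 with the endothelial gene Cldn5. Doublets were not called. Just outside the threshold for keratocytes lay 379 barcodes of WT, 727 of KO and 25 of KO_PBS, and just inside it 342, 477 and 13. Below, the share of all genes counted as higher in a set of a library is given where a count in that set is first named.

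In WT and KO, Acta2 had its highest CPM in the mural sets, that is in barcodes rich in pericyte and smooth muscle genes, and was counted as higher there. In WT it stood at 968 CPM (95% interval 796 to 1166, 111 UMIs) in the mural set, where 4.11% of genes were counted as higher, against 33.4 in the other barcodes and 37.8 in the low-UMI barcodes. In KO the mural set held 290 CPM (169 to 465, 17 UMIs; 2.08% of genes higher), against 20.3 in the others. In KO_PBS it held 536 CPM (395 to 711, 48 UMIs; 7.92% of genes higher), against 299.9 in the others, a 1.79-fold excess that was not counted. The intervals of the mural set lay above the level of the other barcodes in each library. In WT and KO the vascular and lymphatic sets came next, counted in WT (163 CPM, with 9.90% of genes higher) and KO (70.2 CPM, with 2.73%). That of KO_PBS stood at 192 CPM (144 to 251), below the 300.04 CPM of the whole library. The melanocyte set was counted in WT (133 CPM; 4.53%) but not in KO_PBS (392 CPM, 1.31-fold; 9.35%), and the macrophage set was counted in WT (108 CPM; 4.47%). The keratocyte sets did not stand out: Acta2 was 41.5 CPM (WT), 22.5 (KO) and 231 (KO_PBS) there, the last from 22 UMIs and below the low-UMI level. The mural set of WT held 1.28% (exact Clopper-Pearson interval 1.06 to 1.54) of that library's Acta2 UMIs and the one of KO_PBS 0.0900%, so nearly all Acta2 UMIs lay outside it.

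Tgfb2 was counted as higher in the corneal endothelial sets of all 3 libraries. The corneal endothelium, the pump layer that faces the aqueous humor, held 33.2 CPM (26.2 to 41.5; 5.67% of genes higher) in WT, 39.4 (28.9 to 52.3; 3.41%) in KO and 175 (159 to 193; 6.96%) in KO_PBS. These were 3.16-, 2.74- and 2.08-fold the levels of the other barcodes. The WT and KO intervals overlapped, while KO_PBS stood above both. The melanocyte set of KO_PBS reached 318 CPM (287 to 351, 396 UMIs) against 83.9 elsewhere, and that of WT 21.8 CPM (15.5 to 29.8) against 10.6. Tgfb2 also passed in the mural sets of KO_PBS (302 CPM, 27 UMIs) and KO (68.3 CPM, from only 4 UMIs) and in the vascular set of WT (30.9 CPM, 11 UMIs). It was lowest in the basal and limbal epithelial set of WT, at 5.90 CPM. Tgfb3 was sparse in the sets, and most of its UMIs in a counted set were in the keratocyte set of WT, at 9.68 CPM (7.75 to 11.9, 87 UMIs; 5.28% of genes higher) against 4.20. Tgfb1 was counted as higher in 1 set of each library: the vascular set of WT (53.3 CPM, 19 UMIs), the mural set of KO (137 CPM, 8 UMIs) and the T cell set of KO_PBS (88.6 CPM, 12 UMIs, with 6.74% of genes higher). In the plasma cell set of KO Tgfb1 was 37.2 CPM (32.4 to 42.6, 210 UMIs), below the 43.3 CPM of the whole library.

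**Figure D4:**
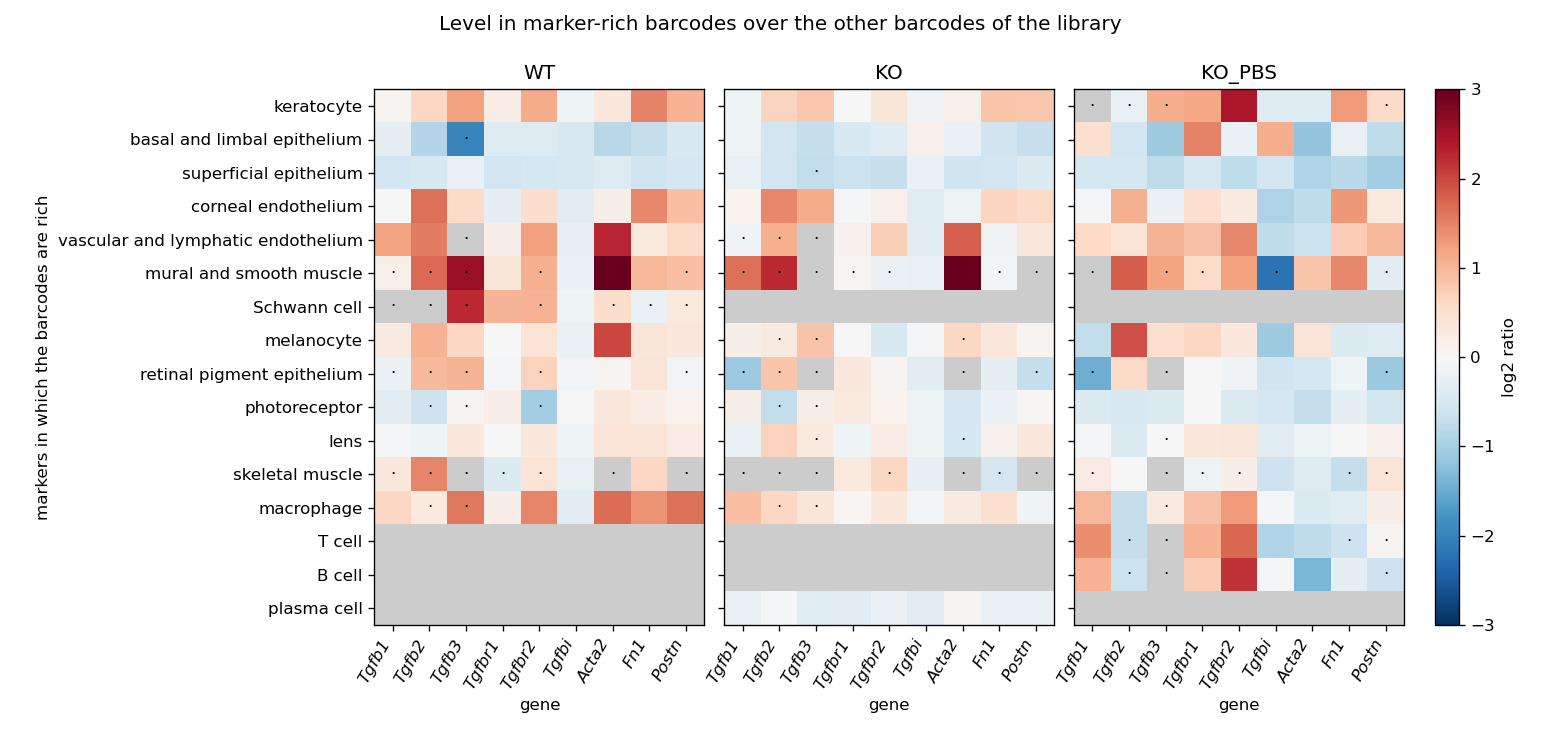
Log2 ratio of each gene's level in marker-rich barcodes over the other barcodes of the same library, for the sets large enough to use. Dots mark values from fewer than 10 UMIs and grey marks sets too small or values from fewer than 3 UMIs; Acta2 in the mural sets of WT and KO is the strongest colour, and Tgfbi is near or below 0 outside the basal and limbal set of KO_PBS.

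Tgfbr2 was counted as higher in stromal, vascular and immune sets. In the keratocyte sets it stood at 34.7 CPM (31.0 to 38.8) in WT against 16.1 elsewhere, at 73.7 CPM (67.7 to 80.0) in KO against 57.4, and at 335 CPM (229 to 474, 32 UMIs) in KO_PBS against 62.7. The excess was counted in WT and KO_PBS but not in KO, where 1.45% of genes were counted as higher in that set, beside 3.54% in KO_PBS. In WT Tgfbr2 was also counted in the vascular (39.3 CPM) and macrophage (46.0 CPM) sets, each from 14 UMIs. In KO_PBS it was also counted in the B cell (281 CPM; 7.53% of genes higher), T cell (207 CPM), vascular (170 CPM; 7.11%), macrophage (152 CPM; 4.63%) and mural (145 CPM) sets, each from 13 to 47 UMIs. T and B cell sets were too small to use in WT and KO. Tgfbr1 was counted in the basal and limbal epithelial set of KO_PBS, at 171 CPM (148 to 196; 5.53% of genes higher) against 60.8, and from fewer UMIs in the keratocyte and T cell sets of that library and the Schwann cell set of WT (2.56% of genes higher). Within KO both receptors were lowest in the superficial epithelial set, at 73.7 CPM for Tgfbr1 and 36.1 CPM for Tgfbr2.

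Fn1 was highest in the keratocyte and corneal endothelial sets of WT and KO. The keratocyte sets held 126 CPM (119 to 134) in WT against 44.9 elsewhere, 282 (271 to 294) in KO against 160, and 220 (136 to 336, 21 UMIs) in KO_PBS against 90.8. The corneal endothelial sets held 128, 255 and 220 CPM. Macrophage sets came next in WT (122 CPM, 85.6 to 168, 37 UMIs) and KO (227 CPM, 183 to 278). Their intervals overlapped those of the corneal endothelial sets there, while in KO_PBS the macrophage set held 71.1 CPM from 15 UMIs. The keratocyte set of WT held 9.29% (8.78 to 9.82) of the library's Fn1 UMIs with 3.51% of all UMIs. Postn leaned the same way, with 56.0 CPM in the keratocyte set of WT against 27.2 and 101 in that of KO against 58.1. Its highest set in WT was that of macrophages, at 88.7 CPM from 27 UMIs, 3.15-fold the other barcodes and counted. Tgfbi was in no set of WT above the other barcodes, and its ratios there ran from 0.718 to 1. In KO its highest set was the basal and limbal epithelium at 812 CPM, 1.11-fold the other barcodes, and in KO_PBS the same set reached 438 CPM (401 to 478), 2.13-fold, which was counted. In KO, Fn1, Postn, Tgfbi, Tgfbr1 and Tgfbr2 were each counted as higher in 0 of 13 sets.

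**Figure D5:**
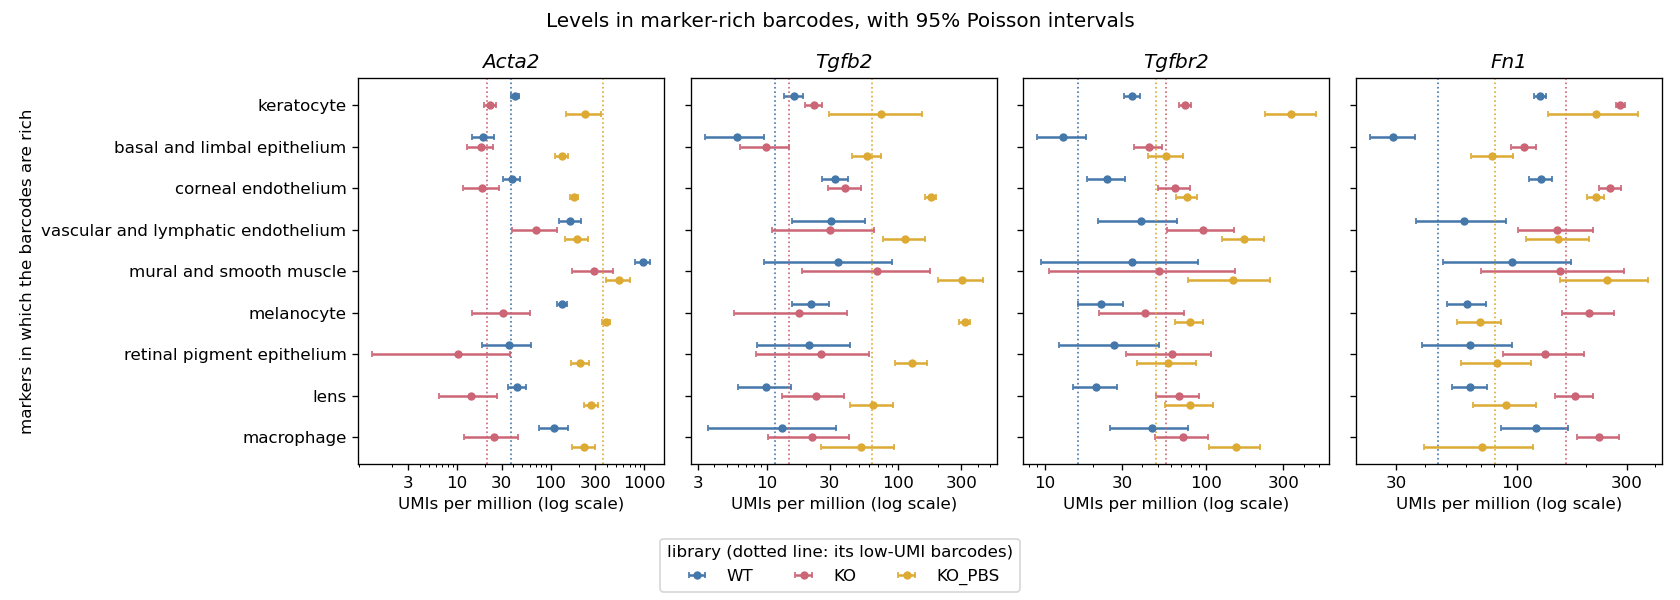
CPM (log scale) of Acta2, Tgfb2, Tgfbr2 and Fn1 in marker-rich sets of the 3 libraries, with 95% Poisson intervals, and dotted lines at the level in each library's low-UMI barcodes. Acta2 in KO_PBS lies below its dotted line in most sets, and Tgfb2 lies above its lines in the corneal endothelial sets.

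The keratocyte sets were also compared between libraries. Between KO and WT, 2 of the 9 genes were counted as higher in them, Fn1 (log2 1.16) and Tgfbr2 (1.08), beside 16.3% of 12483 genes counted as higher and 3.01% as lower. Relative to the median gene of these sets neither was counted, with Fn1 at 0.89 and Tgfbr2 at 0.81, and Acta2 was then counted as lower at -1.16. For calls relative to the median gene of the keratocyte sets no share of all genes is given. With the low-UMI profile subtracted the ratio of Tgfbr2 was -0.035 and that of Fn1 0.40, so neither was counted. Between KO_PBS and KO, Acta2 (3.36), Tgfbr2 (2.19) and Tgfb2 (1.69, from 7 UMIs in KO_PBS) were counted as higher and Tgfbi (-2.11) as lower, beside 10.2% and 2.33% of 10838 genes. Tgfb2 was no longer counted relative to the median gene, and Fn1 (-1.14) and Postn (-1.47) were then lower. Between KO_PBS and WT, Tgfbr2 (3.27), Acta2 (2.47) and Tgfb2 (2.19) were counted as higher and Tgfbi (-1.24) as lower, beside 18.9% and 3.25% of 10415 genes. The calls for Acta2 and Tgfb2 in KO_PBS did not hold with the low-UMI profile subtracted. Of the 22 Acta2 UMIs of that set 0.75 were then left, below the floor of 3. With the floor in its place its ratios fell to 1.18 (KO) and 0.21 (WT), while those of Tgfb2 fell to 0.023 and 0.59. Tgfbr2 stayed counted, at 1.86 and 1.83. Tgfbi was then at or below the floor in the sets of WT and KO_PBS, so no ratio of these is given. The KO_PBS set of 34 barcodes was led by other genes than keratocyte markers, so these are comparisons of sets of different make-up.

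The same comparisons were made over the classes, keratocytes included, whose sets could be used in both libraries. Of the 12 such classes in KO_PBS and KO 10 were compared, because in the superficial epithelial and photoreceptor sets of KO_PBS 0 of their own markers were among the 10 leading genes. The UMI minimum is met by both libraries together, so a set can pass it through the library in which a gene is high, and the counts of sets are a description only. Of 12 sets in KO and WT, Fn1 was counted as higher in KO in 7 and Tgfbr2 in 6, with 3 and 5 sets below the UMI minimum. Acta2 was counted as lower in 5, with 4 below that minimum. The low-UMI barcodes differed the same way: WT and KO held 45.6 and 165 CPM of Fn1, 16.1 and 56.6 of Tgfbr2, and 37.8 and 21.1 of Acta2. In KO the basal (107 CPM) and superficial (109 CPM) epithelial sets lay below that Fn1 level, and the keratocyte set (282 CPM) above it. The part of this shared shift in the counts of sets was not tested. In single sets, 7.43% to 17.9% of all genes were counted as higher in KO and 1.86% to 9.04% as lower. Of 10 sets in KO_PBS and KO, Acta2 was counted as higher in KO_PBS in 8 and Tgfbi as lower in 8, with 1 set below the minimum for each. For Tgfb2, with 5 of the 10 sets below it, no count is given. Here 8.82% to 30.2% of all genes were counted as higher and 2.33% to 39.9% as lower. The low-UMI barcodes of KO and KO_PBS also differed these ways, with Acta2 at 21.1 and 364 CPM and Tgfbi at 727 and 208 CPM. Acta2 was 18.4 CPM in the corneal endothelial set of KO and 179 in that of KO_PBS, and 24.7 and 227 CPM in the macrophage sets. In both of these KO_PBS sets the level was below the 364 CPM of its low-UMI barcodes. In the melanocyte sets Acta2 was 31.4 CPM in KO and 392 in KO_PBS, and the interval of the latter (358 to 429) held that reference level. In the mural sets it was not counted as different between KO_PBS and KO (log2 0.89, though 1.46 and counted relative to the median gene of these sets), and it was lower in KO_PBS than in WT (-0.85, under 2-fold) with intervals that did not overlap.

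Across the 40 sets of the 3 libraries, the pattern of each gene was compared with that of 12520 other genes outside the marker lists, by the Pearson correlation of the log2 ratio of set to library. The points share libraries and differ in depth, so the values describe likeness only. Acta2 was most like Tagln (r = 0.92), Igfbp7 (0.84) and Sparcl1 (0.83). Tgfb2 was most like Lix1l (0.88), B3glct (0.86) and Cbx6 (0.85), and Tgfb1 like Adam17 (0.72), Srgn (0.71) and H2-Q6 (0.68). For Tgfb3 the most like gene was another of the 9, Postn (0.81), before Itm2a (0.78) and Selenom (0.75). Tgfbr2 was most like Wipf1 (0.84), Mbnl1 (0.82) and Pip4k2a (0.80), and Tgfbr1 like E2f3 (0.81), Srgap2 (0.81) and Ccdc6 (0.78). Fn1 was most like Fstl1 (0.82), Bmp3 (0.82) and Dkk2 (0.81), and Postn like Cpxm1 (0.84), Serpinh1 (0.84) and Rcn3 (0.82). Tgfbi was most like 1600014C10Rik (0.85), Sdc1 (0.82) and Fam83a (0.80). Among the 9 genes, Fn1 and Postn had r = 0.76, Tgfbr1 and Tgfbr2 0.57, and Tgfb1 and Tgfb2 -0.047. The lowest value was -0.41, between Tgfb2 and Tgfbi.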

How the data were processed

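Each library's matrix, deposited by the authors, holds raw UMI counts, with no normalization. It was made with Cell Ranger 7.0.1 on mm10, per the submitters' processing notes; the annotation, the use of strand and introns and the barcode filter are not given in the sources used here. The libraries held 256852883 (WT), 352627863 (KO) and 178988562 (KO_PBS) UMIs, of which the 30406 common Ensembl IDs held 99.6%, 99.6% and 99.3%. UMIs were summed over all barcodes of a library, or over marker-rich barcodes, scaled to CPM and compared by the size rule of the report, with counts below 3 set to 3. The computation was tested on simulated data. A barcode was rich in a class when at least 3 of its markers were present and the Poisson probability of so many marker UMIs at the library-wide share was at most 10 to the power of -6. The minimum of 10 barcodes in a set was chosen after the data were seen. No doublet caller was run. The text names the 9 genes, up to 6 pathway genes each way per comparison with the largest ratios among those counted, and for each of the 9 genes the 3 most like genes with at least 200 UMIs and a pseudocount of 5 UMIs. Other pathway genes named were chosen after their values were seen. The 9 genes and all lists were chosen with earlier results of these data known. The alternatives were other scalings, a fold of 1.5, no UMI minimum, barcodes with at least 500 genes and at most 5% mitochondrial UMIs, no low-UMI barcodes, a stricter marker excess of 10, sets without barcodes rich in another class, and subtraction of the low-UMI profile. The tools were Python (3.11.15), with numpy (2.4.6) and scipy (1.17.1) for the counts and pandas (2.3.3) and matplotlib (3.10.9) for tables and plots.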

Additional observations from a re-analysis of the deposited data

Results flagged for a closer look

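Tgfbr1 had ratios of opposite sign in different sets between KO_PBS and KO. Its log2 ratio was 1.03 in the barcodes rich in basal and limbal epithelial markers (171 CPM in KO_PBS from 198 UMIs, 83.5 CPM in KO from 196 UMIs). It was -1.24 in those rich in retinal pigment epithelium markers (60.7 CPM from 25 UMIs, 144 CPM from 28 UMIs). With 1 library per group the difference between these ratios was not tested. Relative to the median gene of each set the ratios were 0.46 and -1.56, so the first was then no longer counted. The low-UMI barcodes held Tgfbr1 at 116 CPM in KO and 46.3 CPM in KO_PBS. The intervals of the retinal pigment epithelium sets, 95.4 to 208 in KO and 39.3 to 89.6 in KO_PBS, held these levels. The lower level in that set was therefore not told apart from the one in the low-UMI barcodes.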

How the results depend on the processing

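No paired analysis was possible because each group has 1 library and the labels give no replicate numbers. For the same reason no library could be left out. Among values of whole comparisons under the alternatives, 95 stayed within 1.5 times and 19 moved, and among values of single genes 280 stayed within their counting interval, 96 moved by more, and 2 that had been counted as differing changed sign. Of all 378 such values of single genes 19 had the other sign, 5 over whole libraries and 14 in the keratocyte sets.

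Centring on the median gene moved counts in each of the 3 comparisons. In KO against WT it gave 2 pathway genes lower, against 0, and 1 of the 9 genes differing in the keratocyte sets, against 2. In KO_PBS against KO it gave 5 of the 9 genes lower, against 1, and 10 pathway genes higher and 12 lower, against 21 and 7. In KO_PBS against WT it gave 2 of the 9 genes higher and 2 lower, against 4 and 0, and 22 pathway genes higher and 4 lower, against 51 and 0. Totals without the 100 most abundant genes gave 2 pathway genes lower in KO against WT, 3 of the 9 genes lower in KO_PBS against KO and 1 lower in KO_PBS against WT. A fold of 1.5 gave, in KO against WT, 7 of the 9 genes higher and 1 lower, and 3 pathway genes lower. In the keratocyte sets 6 of the 9 then differed between KO and WT. The same fold gave 3 and 1 of the 9 lower in KO_PBS against KO and WT. For this fold, for those totals and for centred keratocyte sets no share of all genes is given here. Their counts are therefore not read as a result about the 9 genes or the pathway. Subtracting the low-UMI profile from the keratocyte sets turned Tgfbr2 in KO against WT to -0.035, and the cause was not tested. It also ended the calls for Fn1 in KO against WT and for Acta2 and Tgfb2 in KO_PBS against KO and WT. It left 0 of 3343 Tgfbi UMIs in WT and 2.85 of 15 in KO_PBS, so the 1 gene then differing in KO against WT (Tgfbi) is a ratio to the floor of 3. The value for Tgfbi in KO_PBS against WT, 4.43 in place of -1.24, has both sides at the floor and measures no change. Leaving out barcodes rich in pigment, lens, retina or muscle markers, added after the data were seen, left every count over whole libraries within 1.5 times. These barcodes, with smooth muscle among the muscle, held 2.01% (WT), 0.545% (KO) and 2.14% (KO_PBS) of the UMIs, so those counts could hardly move, and this says nothing of RNA spread over the other barcodes.

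Depth limits the sets more than the libraries. In the KO_PBS keratocyte set 2 UMIs of Tgfb1 and 7 of Tgfb2 were counted, so differences there were detectable only if large.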
